A study of Mus musculus with 24 samples.

Results

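Betacellulin (Btc), epiregulin (Ereg), heparin-binding EGF-like growth factor (Hbegf), transforming growth factor alpha (Tgfa) and neuregulin 1 (Nrg1) are ligands of the epidermal growth factor (EGF) family, and Egfr encodes the receptor that binds the first 4 of them. These 6 genes were taken by symbol, and every probe annotated to them was used: 15 of 45281 probes on the array, for 6 of 19057 genes with a single symbol. Egfr had 6 probes, Nrg1 had 3, Ereg and Hbegf had 2 each, and Btc and Tgfa had 1 each.

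RNA of mouse embryonic fibroblasts (MEFs) was measured on 24 Illumina Mouse-6 arrays. Cells described as null for Siah1a and Siah2 (KO) and wild-type (WT) cells were each held for 12 h in 1% oxygen (OD), without glucose (GD) or without both (OGD), were exposed for 6 h to thapsigargin (TG) or tunicamycin (TM), or were left untreated. Siah1a and Siah2 encode ubiquitin ligases. TG, used at 1 µM according to the methods, releases calcium from the endoplasmic reticulum, and TM, whose dose on the arrays is not named, blocks N-linked glycosylation there. Each of the 12 groups held 2 arrays. Treatments were done in duplicate with no statement that these were separate cultures. Errors and p-values of the model of all 24 arrays therefore measure the spread between duplicate arrays, pooled over the 12 groups. That spread may be technical, and it is not the spread of the groups compared alone. Genotype cannot be told apart from any other difference between the cells used. The cultures were bulk samples, in which fewer cells of a type and less RNA per cell cannot be told apart.

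EGF family ligands are made as membrane-anchored precursors that proteases of the ADAM family cut at the cell surface. The released ligand binds a receptor of the ErbB family, to which EGFR belongs, and the paired receptors signal through RAS to the kinase ERK and through PI3-kinase. Nrg1 differs from the other ligands here in not binding EGFR: its receptors are ErbB3 and ErbB4. ERK in turn switches on genes that include Hbegf itself, the ETS transcription factors Etv4 and Etv5, and the Dusp phosphatases that shut ERK off. Fibroblasts are a classical cell type for EGFR signalling.

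Array values are the normalized intensities deposited by the authors, and fold changes are on the log2 scale. A background level of 235 was estimated from all values, and a probe was kept when at least 1 array exceeded it, which left 25971 probes for 13114 genes. Of the member probes 10 were kept, for 5 genes. A gene was called when its probe with the highest mean passed a Benjamini-Hochberg adjusted p of 0.05 in limma and a 2-fold change. Siah1a lay between 178 and 303 on KO arrays and between 1155 and 1839 on WT arrays and was lower in KO cells in 6 of 6 conditions, and Siah2 was lower in 3 of 6. Siah2 lay between 239 and 718 on KO arrays, above the background level on each, and between 505 and 2014 on WT arrays; whether its probe lies in the deleted part of the gene is not given in the sources used here. Of 9 fibroblast markers, 9 exceeded the level on every KO array and 7 on every WT array, while Thy1 exceeded it on 0 WT arrays (140.5 to 215) and on all KO arrays (429 to 974). Of 7 epithelial markers, Krt5, Epcam and Cldn4 were above the level on 0 of 24 arrays. Krt8 exceeded it on 13 arrays, Krt14 and Cdh1 on 7 each and Krt18 on 4, with values of at most 336. The arrays fell in 2 sets of chips. The KO arrays of OD and OGD and all TG and TM arrays formed 1 set, and the remaining arrays, untreated cells included, the other.

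Of the members called between genotypes, a ligand (Btc) and the receptor (Egfr) matched an entry in the promoter table, and the regions just upstream of them are shown for that reason. They come from RefSeq on GRCm38.p6, and the 250 bases before the annotated start are given for each.
Btc, chr5:91402995-91403244, minus strand: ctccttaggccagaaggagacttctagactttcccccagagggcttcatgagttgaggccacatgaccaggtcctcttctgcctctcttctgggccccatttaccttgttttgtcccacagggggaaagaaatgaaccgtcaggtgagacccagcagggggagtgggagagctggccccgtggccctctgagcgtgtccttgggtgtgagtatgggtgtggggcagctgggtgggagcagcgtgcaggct
Egfr, chr11:16751953-16752202, plus strand: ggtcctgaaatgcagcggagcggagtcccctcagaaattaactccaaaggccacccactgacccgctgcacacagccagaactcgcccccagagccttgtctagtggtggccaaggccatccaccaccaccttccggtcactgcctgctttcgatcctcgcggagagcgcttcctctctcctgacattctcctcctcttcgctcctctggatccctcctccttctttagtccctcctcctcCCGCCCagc
Both are written 5′ to 3′ along the strand of the gene, and capitals mark a GC box (GGGCGG or its reverse, CCGCCC). The Egfr window of 250 bases held 1 such match, 9 bases before the start, and that of Btc held 0; the motif occurs in 32.7% of 32851 mouse promoter windows of this length. Neither window held the AP-1 motif TGANTCA (6.75% of windows), the CARE motif TGATGNAA (3.45%), the HIF core ACGTG (16.6%) or the ERSE motif (0.113%) on either strand. Btc lies at chr5:91357261-91402994, Ereg on the same chromosome at chr5:91074617-91093649, and Egfr at chr11:16752203-16913907.

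Hbegf, a heparin-binding ligand of EGFR and ErbB4, showed the largest differences between genotypes of the measured members. With either drug its mRNA was lower in KO cells than in WT cells, and in KO cells both drugs took it far below the untreated level. Under TM it measured 718 and 696 in KO cells, against 6277 and 5399.9 in WT cells. Under TG it measured 994 and 983 in KO cells, against 4175 and 4625 in WT cells. No KO array of either drug reached the level of any WT array, a separation whose share over all genes is not given. The log2 fold change of KO over WT was -3.04 ± 0.41 (SE; adjusted p = 0.00015, limma) under TM, which is 8.24-fold lower, and -2.15 ± 0.41 (adjusted p = 0.0034, limma) under TG, or 4.44-fold lower. In the same comparisons 2.1% and 1.86% of all genes were called lower under TM and TG.

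**Figure D1:**
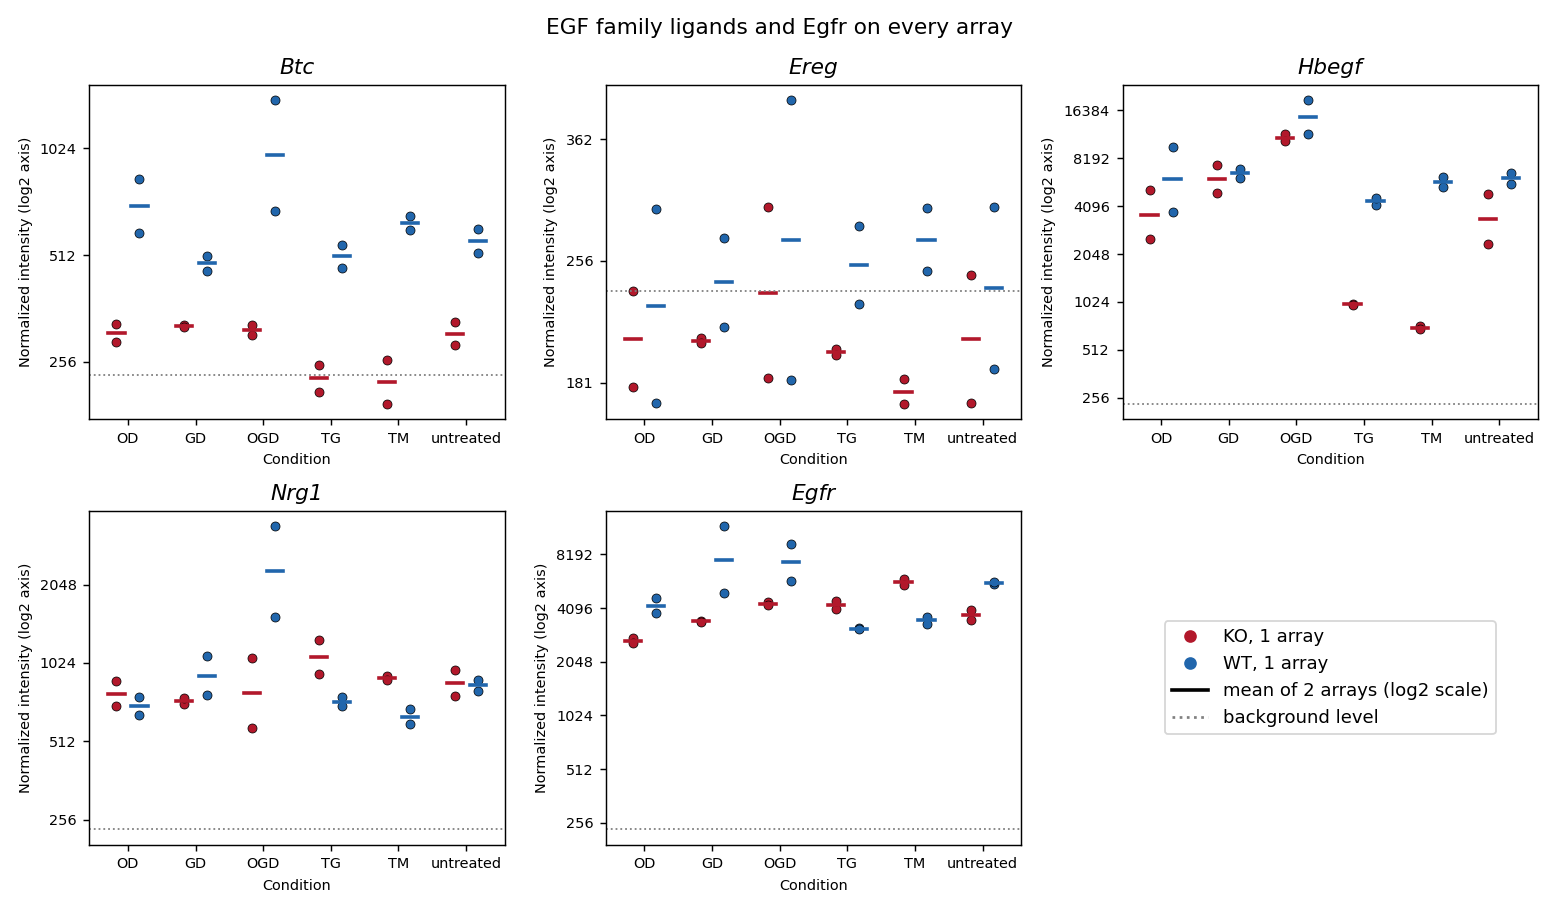
Normalized intensity (log2 axis) of the probe with the highest mean of each measured member on all 24 arrays, by condition, with KO arrays in red left of WT arrays in blue; bars are means of 2 arrays on the log2 scale and the dotted line is the background level of 235. Hbegf dropped in KO cells under TG and TM, and every KO array lay below every WT array for Btc, a separation whose share over all genes is not given.

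Untreated cells had 4910.0 and 2384 for Hbegf in KO and 6638 and 5644 in WT. Against these, TM changed Hbegf by -2.28 ± 0.41 in KO cells (adjusted p = 0.00411, limma) and by -0.07 ± 0.41 in WT cells (adjusted p = 0.982, limma). TG changed it by -1.79 ± 0.41 in KO cells (adjusted p = 0.0112, limma) and by -0.48 ± 0.41 in WT cells (adjusted p = 0.662, limma). Hbegf was 1 of 5 measured members called lower in KO cells under each drug, where 1.39% of all genes were called lower under TM and 2.39% under TG (3.24% and 5.48% in either direction). No member was called on its highest probe in KO cells under OD, GD or OGD, where 0.297%, 0.00763% and 1.32% of all genes were (0, 0 and 1 members at an unadjusted p under 0.05). The drug arrays and the untreated arrays lay on different chip sets in both genotypes. The KO response minus the WT response, in which each genotype crosses the same sets, was -2.20 ± 0.58 for TM (adjusted p = 0.165, limma) and -1.31 ± 0.58 for TG (adjusted p = 0.714, limma), and neither passed. This difference in response passed for 0 of 5 members under any stress (limma), while over all genes it passed for 0% under OD and GD, 0.0229% under OGD, 0.496% under TG and 0.633% under TM. At an unadjusted p of 0.05 it passed for 0 members under OD and GD, for 1 under OGD, for 2 under TG and for 2 under TM. With the replicate number as a block, the TM difference passed (adjusted p = 0.0151, limma). The call in KO cells was lost without replicate 1 of untreated KO cells, at -1.75 (adjusted p = 0.0904, limma) for TM and -1.27 (adjusted p = 0.177) for TG; the TG call was also lost without either KO TG array (adjusted p = 0.0753 and 0.0622). The summed intensity of 4 neural markers moved alongside, at 2605 and 3051 on KO TM arrays and 2820 and 2643 on KO TG arrays, against 4377 and 4904 on untreated KO arrays. Within this list Sox10 measured 187 and 172 under TM and 173 and 176 under TG, against 1357 and 807 in untreated KO cells. Tubb3 and Gfap were above the level on 0 of 24 arrays. Map2 was above it on all 24, at 1727 to 3669 in KO cells and 1606 to 2690 in WT cells, so the sum also holds signal found in both genotypes. The part of neural cells in the Hbegf difference was not tested.

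Deprivation of both oxygen and glucose went with the highest Hbegf values in each genotype. OGD gave 11550.2 and 10540.3 in KO cells, against 4910.0 and 2384 in untreated KO cells. In WT cells OGD gave 18989 and 11649.7, against 6638 and 5644 in untreated WT cells. In both genotypes the 2 OGD arrays lay above the 2 untreated arrays, and the share of all genes that do so is not given. The changes of 1.69 ± 0.41 in KO cells (adjusted p = 0.0501, limma) and 1.28 ± 0.41 in WT cells (adjusted p = 0.0689, limma) missed the threshold, and both passed with the replicate block (adjusted p = 0.00428 and 0.0086). The KO comparison crosses chip sets and the WT comparison does not. OD and GD changed Hbegf by at most 0.83 (KO cells under GD, adjusted p = 1) and passed in neither genotype. The other Hbegf probe exceeded the background level on 1 of 24 arrays, with values between 161 and 236.

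Btc, a ligand of EGFR and ErbB4, gave lower values in KO than in WT cells in every condition, and the difference was called in 4 of 6. Across all conditions KO arrays measured 195 to 331 and WT arrays 462 to 1399.7, so that the 12 KO arrays and the 12 WT arrays did not overlap. The share of all genes that separate in this way is not given here, so the separation is not shown to be particular to Btc. Under TM, Btc measured 195 and 259 in KO cells, against 603 and 658 in WT cells, a change of -1.49 ± 0.26 (adjusted p = 0.00131, limma). Under TG it measured 210.0 and 251 in KO cells, against 472 and 547 in WT cells (-1.15 ± 0.26, adjusted p = 0.0102, limma). On each drug, 1 of the 2 KO arrays lay under the background level. Both comparisons lay within 1 chip set.

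Btc was lower in KO cells under OD and OGD as well. Under OD, Btc measured 292 and 326 in KO cells, against 841 and 589 in WT cells (-1.19 ± 0.26, adjusted p = 0.0102, limma), where 1.7% of all genes were called lower. Under OGD it measured 326 and 305 in KO cells, against 1399.7 and 682 in WT cells (-1.63 ± 0.26, adjusted p = 0.000727, limma), where 2.03% were called lower. The gap was smallest under GD, with 324 and 321 in KO cells against 462 and 509.7 in WT cells (-0.59 ± 0.26, adjusted p = 0.288, limma). Untreated cells gave 285 and 331 in KO and 519 and 607 in WT, a difference of -0.87 ± 0.26 that missed the threshold (adjusted p = 0.0677, limma); no member was called in untreated cells (1 at an unadjusted p under 0.05), where 1.49% of all genes were called lower. Under OD and OGD the genotypes lay on different chip sets, so genotype and chip cannot be told apart there. A fit to the 4 arrays of the comparison alone ended the calls under OD (adjusted p = 0.146) and OGD (adjusted p = 0.274), and single arrays ended that under OD (adjusted p = 0.109 without WT OD replicate 1, 0.0933 without KO OD replicate 1) and that under TG (adjusted p = 0.112 without KO TG replicate 1, 0.109 without WT TG replicate 2).

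The stresses themselves changed Btc in neither genotype past the threshold. The largest change was that of WT cells under OGD, 0.80 ± 0.26 (adjusted p = 0.0676, limma), in which the arrays disagreed: the value was 1.32 without WT OGD replicate 2, where it was called (adjusted p = 0.00378, limma). KO cells moved by 0.04 ± 0.26 under OGD. The KO response minus the WT response was -0.76 ± 0.36 (adjusted p = 0.971, limma). In rank, the 6 WT groups stood above the 6 KO groups, and within each genotype every neighbouring pair overlapped except untreated KO cells over TG-treated KO cells.

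**Figure D2:**
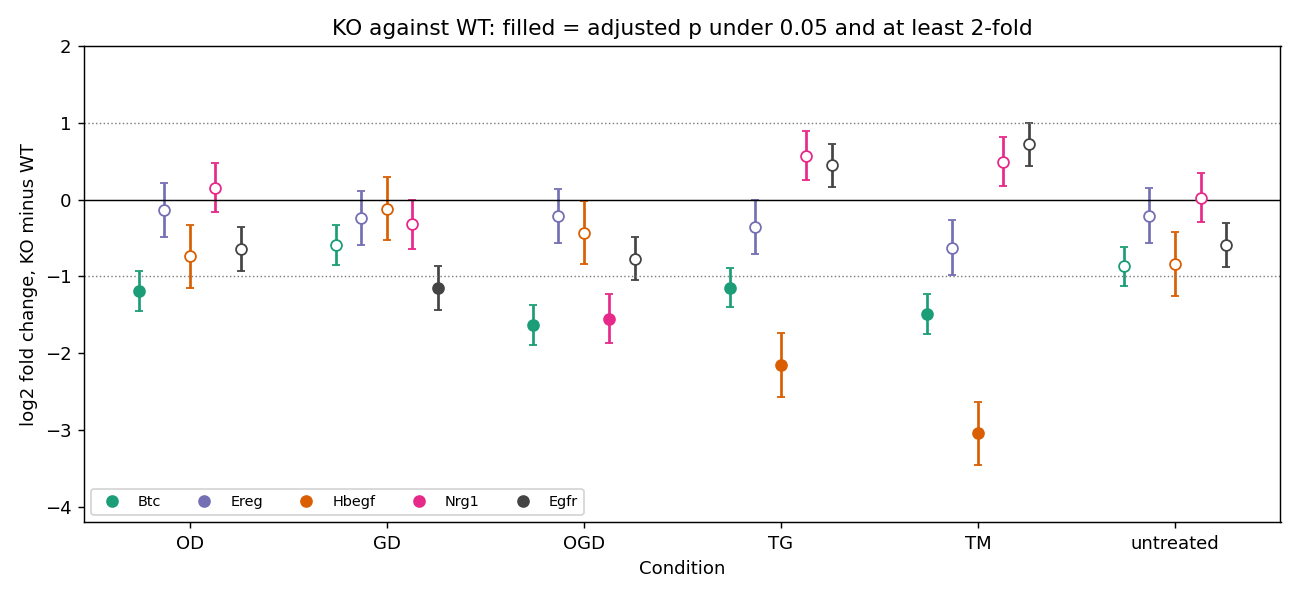
Log2 fold change of KO over WT (± SE) of each measured member in 6 conditions; filled points passed an adjusted p of 0.05 and a 2-fold change, and dotted lines mark 2-fold. The filled points, 8 in all, lie below 0, at Btc under OD, OGD, TG and TM, Hbegf under TG and TM, Nrg1 under OGD and Egfr under GD.

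Nrg1, a ligand of ErbB3 and ErbB4, stood out in a single group. Under OGD it measured 1544 and 3440.1 in WT cells, against 801 and 884 in untreated WT cells. Both OGD arrays exceeded every other WT array, a pattern whose share over all genes is not given. The change was 1.45 ± 0.32 (2.74-fold, adjusted p = 0.0114, limma). It was the 1 member of 5 called higher in WT cells under OGD, where 2.22% of all genes were called higher and 4.63% in either direction. No member was called on its highest probe in WT cells under OD, GD, TG or TM, where 0.252%, 0.00763%, 3.91% and 2.62% of all genes were (0, 0, 1 and 1 members at an unadjusted p under 0.05). KO cells under OGD gave 577 and 1072, against 763 and 962 in untreated KO cells (-0.12 ± 0.32, adjusted p = 0.944, limma). KO cells were thus lower than WT cells under OGD, by -1.55 ± 0.32 (adjusted p = 0.00604, limma), a comparison across chip sets. The test of the difference in response gave -1.58 ± 0.45 (adjusted p = 0.643, limma) and did not pass.

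These Nrg1 values rest on the WT OGD pair, whose 2 arrays correlated least of all groups (r = 0.954, with 8.74% of probes 2-fold apart). Without WT OGD replicate 2 the response was 0.87 (adjusted p = 0.13, limma) and the genotype difference -0.97 (adjusted p = 0.0881, limma). The genotype difference was also lost without KO OGD replicate 1 (-1.10, adjusted p = 0.106), the response without either untreated WT array (adjusted p = 0.0632 and 0.0646), and both in a fit to the 4 arrays of the comparison (adjusted p = 0.42 and 0.364). On WT OGD replicate 2 the blood marker Csf1r measured 782, against 275 on its duplicate and at most 290.4 on the other WT arrays. The summed intensity of 4 blood markers, Csf1r included, was 1353, against 842 on its duplicate. The gap between these sums was almost wholly that of Csf1r. Ptprc was above the level on 1 of 24 arrays and Lyz2 on 0; the part of other cell types in the Nrg1 value was not tested. In the other conditions Nrg1 lay between 698 and 1251 in KO cells and between 596 and 1087 in WT cells. Its other 2 probes were above the level on 0 of 24 arrays.

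Ereg and Tgfa, both ligands of EGFR, were at the edge of detection or under it. Ereg exceeded the level on 2 of 12 KO arrays and 7 of 12 WT arrays, with KO values of 170.5 to 298 and WT values of 171 to 405. The ranges overlapped almost throughout, and 0 of its 21 comparisons were called (limma), or passed an unadjusted p of 0.05. Under TM it measured 170.5 and 183 in KO cells, neither above the level, against 248 and 298 in WT cells, which is at least 1.16-fold lower (adjusted p = 0.381, limma). The single Tgfa probe was above the level on 0 of 24 arrays, with values of 166 to 216, as was the other Ereg probe.

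Egfr, the receptor of this family, was read by 5 kept probes, and these did not respond alike. On the probe with the highest mean, ILMN_2693922, the values were lower in KO cells in untreated, OD, GD and OGD cultures and higher in KO cells under TG and TM. GD gave 3458 and 3431 in KO cells, against 4946 and 11834 in WT cells, a change of -1.15 ± 0.28 (adjusted p = 0.0264, limma) and the only call for this probe; 1.55% of all genes were called lower in that comparison. The WT duplicates were far apart. Without WT GD replicate 2 the change was -0.52 (adjusted p = 0.335, limma), and it was also lost without either KO GD array (adjusted p = 0.135 and 0.141) and in a fit to those 4 arrays (adjusted p = 0.43). TM gave 5991 and 5513 in KO cells, against 3640.2 and 3346 in WT cells (0.72 ± 0.28, adjusted p = 0.156, limma). On probe ILMN_1241496 the same comparison passed, with 5166 and 7896 in KO cells against 2851 and 3075 in WT cells (1.11 ± 0.32, adjusted p = 0.0423, limma), where 3.67% of all genes were called higher; that call was lost in 14 of 24 omissions of 1 array, with an adjusted p of up to 0.329 (0.80 without KO TM replicate 2). Both comparisons lay within 1 chip set.

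Under OGD the probes parted. Probe ILMN_3128725 measured 3354 and 10531 in WT cells under OGD, against 1674 and 1839 in untreated WT cells (1.76 ± 0.39, adjusted p = 0.0114, limma), a call lost without WT OGD replicate 2 (0.93, adjusted p = 0.113) or either untreated WT array (adjusted p = 0.0605 and 0.0668). Probe ILMN_3052260 measured 2475 and 6104, against 1226 and 1046 (1.78 ± 0.31, adjusted p = 0.00249, limma), and 1.13 without WT OGD replicate 2, where it was still called. Both calls were lost in a fit to the 4 arrays of the comparison (adjusted p = 0.393 and 0.334). These 2 probes, annotated to the same RefSeq record, tracked each other over the 12 group means (r = 0.992). Probe ILMN_1241496, annotated to no record, went the other way, with 3241 and 2085 under OGD against 4607 and 6020.2 untreated (-1.02 ± 0.32, adjusted p = 0.0619, limma). The highest probe, annotated to another record, changed by 0.38 ± 0.28 (adjusted p = 0.501, limma). The choice of probe therefore sets the size and even the sign of the Egfr response to OGD.

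In a test of each probe's response against the other probes of its gene (diffSplice in limma, added after the values were seen), 3 Egfr probes passed in WT cells under OGD, among 2.02% of 13724 probes. ILMN_1241496 differed by -2.11 (adjusted p = 0.00103, limma), ILMN_3052260 by 1.38 (adjusted p = 0.0444, limma) and ILMN_3128725 by 1.36 (adjusted p = 0.0496, limma). Without WT OGD replicate 2 none of the 3 passed, at -1.12 (adjusted p = 0.164), 1.17 (adjusted p = 0.139) and 0.93 (adjusted p = 0.308), and the direction was kept. Without untreated WT replicate 2 none passed either (adjusted p = 0.0614, 0.386 and 0.238), and without untreated WT replicate 1 only the first did (adjusted p = 0.0117, 0.119 and 0.216). In KO cells under OGD the same 3 probes differed by -1.50, 0.61 and 1.00 (adjusted p = 0.0888, 1.00 and 0.565, limma), and 0 of the 5 passed, where 0.27% of all probes did. The positions of the probes along the transcript are not given in the files, so no isoform is named.

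**Figure D3:**
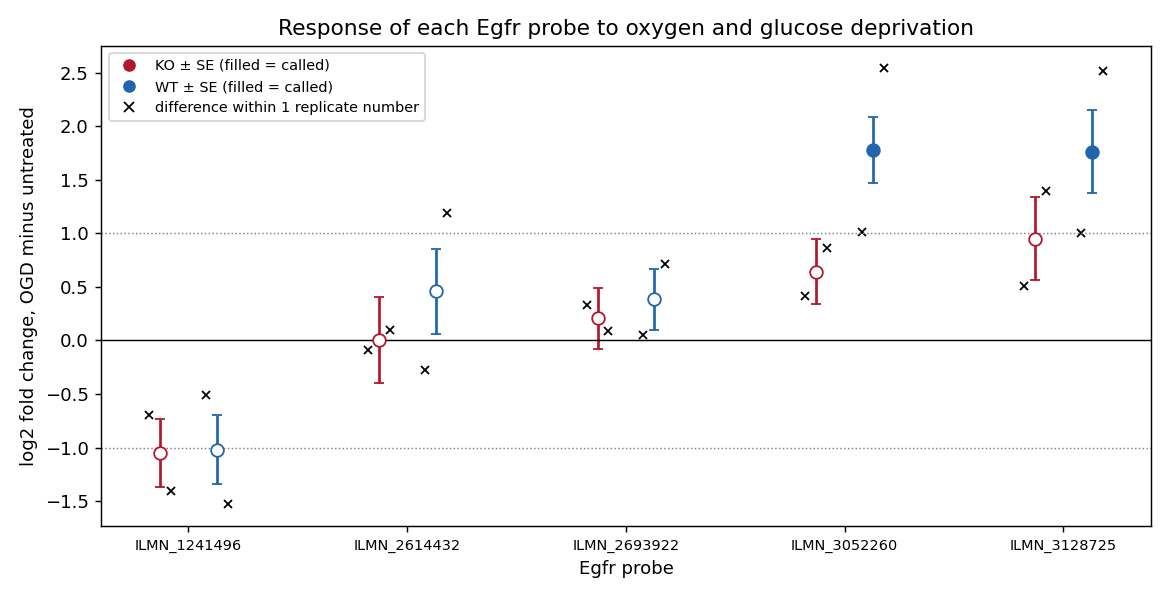
Log2 fold change of OGD over untreated for the 5 kept Egfr probes, in KO (red, left) and WT cells (blue, right); circles are limma estimates ± SE, filled where the adjusted p was under 0.05 and the change at least 2-fold, and crosses are the differences within replicate number 1 and 2. The estimates run from about -1 on ILMN_1241496 in both genotypes to 1.76 on ILMN_3128725 and 1.78 on ILMN_3052260 in WT cells.

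KO cells had less of the ILMN_3052260 and ILMN_3128725 signals under OGD, a comparison across chip sets. ILMN_3052260 measured 860.3 and 1200.1 in KO cells, against 2475 and 6104 in WT cells (-1.94 ± 0.31, adjusted p = 0.000764, limma), and ILMN_3128725 measured 1095 and 2107, against 3354 and 10531 (-1.97 ± 0.39, adjusted p = 0.00426, limma). Without WT OGD replicate 2, the higher of the WT pair, these differences were -1.28 (adjusted p = 0.00602, limma) and -1.14 (adjusted p = 0.0484, limma). The ILMN_3128725 call was lost without KO OGD replicate 1 (-1.50, adjusted p = 0.078, limma), and both were lost in a fit to the 4 arrays of the comparison (adjusted p = 0.299 and 0.421). Under GD, ILMN_3052260 was lower in KO cells as well (-1.22 ± 0.31, adjusted p = 0.0286, limma), a call lost without WT GD replicate 2 (-0.92, adjusted p = 0.296) or either KO GD array (adjusted p = 0.149 and 0.141). With TG or TM in the medium the genotypes overlapped or nearly so on this pair, and ILMN_3052260 gave 554 and 604 in KO cells under TM, against 602 and 569.8 in WT cells. Probe ILMN_2614432, with values of 213 to 804, was called in 0 comparisons, and the remaining Egfr probe was above the level on 0 of 24 arrays.

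The other genes of the pathway were taken from lists. Of 9 further EGF family ligands and ErbB receptors, 3 were measured, Epgn, Egf and Erbb2. Amphiregulin (Areg) had 0 probes under that single symbol in the annotation used, so it was not read here. The paper's own list of stress genes gives it as lower in KO cells under TM. Erbb2, the receptor that pairs with the other ErbB proteins, fell in KO cells under TG, with 767 and 639 against 1500.2 and 1348 in untreated KO cells (-1.02 ± 0.29, adjusted p = 0.0358, limma), and it was the only call of that list. The ErbB3 and ErbB4 genes, whose products bind Nrg1, had no probe above the level on any array. Among 11 measured genes of ligand shedding, Timp3, an inhibitor of metalloproteases that include ADAM17, was higher in KO cells in 6 of 6 conditions, by 1.57 to 2.81, and none of the other 10 was called between genotypes. Over all genes 2.25% were called higher under OD, 2.14% under GD, 3.1% under OGD, 3.19% under TG, 3.67% under TM and 2.35% in untreated cells. Untreated cells gave 29697 and 27909.9 for Timp3 in KO and 5312 and 3153 in WT (2.81 ± 0.26, adjusted p = 4.81e-06, limma). Under TG, Timp3 and the protease gene Adam12 were lower than in untreated cells in both genotypes, Timp3 by -2.85 ± 0.26 in KO cells and by -1.61 ± 0.26 in WT cells.

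Of 13 measured genes of ErbB signal transduction, Gab1, an adaptor between receptors and PI3-kinase, was higher in KO cells under TM, with 2868 and 2683 against 1019.6 and 934 in WT cells (1.51 ± 0.16, adjusted p = 1.34e-05, limma), and under TG (1.24 ± 0.16, adjusted p = 0.00011, limma). Its response to TM differed between genotypes (1.22 ± 0.23, adjusted p = 0.0241, limma). The other calls of that list between genotypes were Nras, lower in KO cells under GD, and Pik3r1, higher in KO cells under OGD. Map2k1, a kinase directly above ERK, rose under OGD in KO cells (1.50 ± 0.17, adjusted p = 0.000143, limma) and in WT cells (1.29 ± 0.17, adjusted p = 0.00032, limma). It was also called higher under OD in KO cells (1.25 ± 0.17, adjusted p = 0.0024, limma). In WT cells OD gave 1105 and 1113, against 666 and 595 untreated, and was not called. Both KO comparisons cross chip sets. Of 13 measured feedback inhibitors, Errfi1, which binds and blocks EGFR, fell under both drugs in both genotypes, by -1.47 and -1.33 in KO cells under TG and TM and by -1.69 and -1.12 in WT cells, all ± 0.27. Socs5, which promotes EGFR turnover, fell in KO cells under TG (-1.88 ± 0.23, adjusted p = 6.88e-05, limma) and TM (-1.25 ± 0.23, adjusted p = 0.00437, limma). Between genotypes 2 of the 13 inhibitors were called, both under OGD, with Socs5 higher and Spred2 lower in KO cells, where 3.1% of all genes were called higher and 2.03% lower.

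Some genes known to be switched on by ERK were, like Hbegf, lower in KO cells under both drugs. Of 10 measured, KO cells had 5 lower than WT cells under TG and 6 under TM. Over all genes 1.86% and 2.1% were called lower there. In the other 4 conditions 0 were called in either direction, where 1.49% to 2.03% of all genes were called lower, 2.14% to 3.1% higher. At an unadjusted p under 0.05 (limma), 2 passed under OD, 3 under GD, 5 under OGD and 1 in untreated cells. Of these only Etv5 was lower in KO cells, by -0.80 under OD, -0.57 under GD, -0.93 under OGD and -0.92 untreated. Etv5 passed the adjusted p under OD, OGD and in untreated cells (0.0111, 0.00307 and 0.00423, limma) but missed 2-fold. The others (Fos, Etv4, Dusp4 and Dusp6) were higher in KO cells, by up to 1.68 for Dusp4 under OD. The median KO over WT change of the 10 was -1.55 under TG and -2.17 under TM, against -0.01 and -0.02 over all genes. Etv4 measured 548 and 504 in KO cells under TM, against 2583 and 3673 in WT cells. Etv5 measured 381 and 368 in KO cells under TM, against 3026 and 3518 in WT cells. Dusp6, the phosphatase that inactivates ERK, measured 1569.5 and 2193 in KO cells under TM, against 11298 and 18066 in WT cells. No KO array reached a WT array for any of the 3, a separation whose share over all genes is not given. The changes were -2.55 ± 0.24, -3.12 ± 0.17 and -2.94 ± 0.42 (adjusted p = 3.4e-06, 1.02e-08 and 0.000249, limma). Egr1, Dusp5 and Dusp4 were the other 3, and Dusp4 was not called under TG (-1.65 ± 0.69, adjusted p = 0.201, limma). Fos, Myc, Phlda1 and Ier3 were called in neither comparison; Fos gave 0.48 ± 0.26 under TG and 0.21 ± 0.26 under TM, and Phlda1 gave 0.27 ± 0.53 under TG. Leaving out 1 array at a time left 3 to 5 calls under TG, with 3 when KO TG replicate 1 was omitted and 3 when WT TG replicate 2 was, and 4 to 6 under TM.

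Against untreated cells the same list had 5 genes lower in KO cells under TG and 6 under TM, and 0 in either direction in WT cells under any stress (limma; at an unadjusted p under 0.05, 2 under OGD, 2 under TG and 3 under TM). Over all genes 2.39% and 1.39% were called lower in KO cells under TG and TM, and 4.63%, 3.91% and 2.62% were called in either direction in WT cells under OGD, TG and TM. In KO cells Dusp6 changed by -2.25 ± 0.42 under TG and -2.65 ± 0.42 under TM, and in WT cells by 0.58 ± 0.42 and 0.94 ± 0.42. The response differed between genotypes for Etv4 and Etv5 under TG (-2.08 ± 0.34 and -1.51 ± 0.25, adjusted p = 0.011 and 0.0112, limma), where 0.206% of all genes were called lower, and for Etv4, Etv5 and Dusp6 under TM (-2.50 ± 0.34, -2.20 ± 0.25 and -3.59 ± 0.59, adjusted p = 0.00332, 0.000771 and 0.0133, limma), where 0.259% were. The fall in neural markers given with Hbegf touches these KO responses too: Sox10 measured 172 to 187 on the KO drug arrays, against 1357 and 807 on untreated KO arrays. Its part in them was not tested. In the KO against WT comparisons under the drugs, Sox10 was under the background level in both genotypes, at 172 to 187 on KO arrays and 166 to 193 on WT arrays. The list was written from general knowledge, with earlier results of these arrays known.

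**Figure D4:**
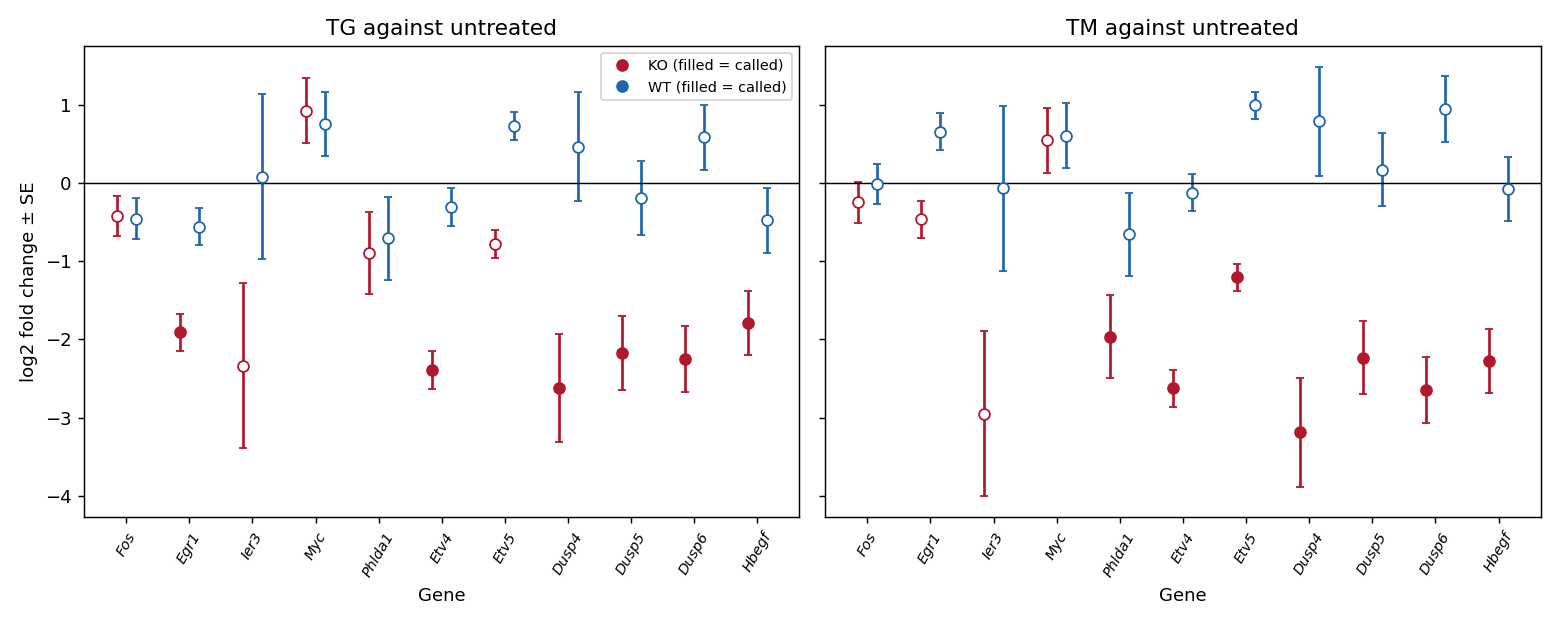
Log2 fold change against untreated cells (± SE) of 10 ERK target genes and Hbegf under TG (left panel) and TM (right panel), in KO cells (red, left of each pair) and WT cells (blue); filled points passed an adjusted p of 0.05 and a 2-fold change. The filled points are all of KO cells and lie below -1, and Fos, Myc and Ier3 have none.

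Over the 12 group means, which share arrays and chips, Ereg, which lay near the background level, ran with Btc (r = 0.856) and Hbegf (r = 0.778). Hbegf ran with Btc (r = 0.729). Egfr, on its highest probe, gave r = 0.631 with Nrg1 and r = 0.143 with Hbegf. The Egfr probes differ in this, as ILMN_3052260 and ILMN_1241496 gave r = -0.03 with each other. Among 4830 genes whose group means spanned at least 2-fold, those most like Hbegf were Plaur (r = 0.966), the receptor of urokinase, Ercc1 (r = 0.961) and Tpd52 (r = 0.956). Those most like Btc were Pum2 (r = 0.984), E2f5 (r = 0.967) and Dpysl3 (r = 0.962), and those most like Nrg1 were Krt16 (r = 0.948), Csf1r (r = 0.911) and Smoc2 (r = 0.899). For Egfr the values were lower, with Sorcs2 (r = 0.877), Pls3 (r = 0.862) and Dock9 (r = 0.851). Nrg1 and Csf1r both had their highest value on WT OGD replicate 2. These correlations are descriptions over 12 points.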

How the data were processed

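Per the methods, biotin-labelled cRNA was hybridised to Illumina Mouse-6 BeadChips and processed by the authors in GenomeStudio (version not given in the sources used here). The deposited normalized intensity values are linear. Once each array was sorted, values of equal rank differed across arrays by 0.0816% in the median and 4.48% at the maximum, a pattern that quantile normalization leaves. A deposited table of 24 un-normalized signal and 24 detection p columns was not used, because its column names match no sample label, so alternatives planned on those signals were not run.

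Symbols came from the platform's annotation (34885 probes with 1 symbol, 18 with several, 10378 with none). The background mode was 182 with a spread of 0.157 (log2), and the level of 235 (7.88 on the log2 scale) is its upper tail of 0.01; 57.4% of probes were kept. The log2 intensities entered a limma 3.58.1 model (R 4.3.3) of 12 group means and no covariate (12 residual and 3.46 prior degrees of freedom), with 21 contrasts: KO against WT in 6 conditions, each of 5 stresses against untreated cells in each genotype, and the difference of these responses. Within a genotype the 5 stress contrasts share the untreated arrays. P-values were adjusted by Benjamini-Hochberg over all kept probes of a contrast. The chip set of each group was read from the study's array labels.

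Samples with the same replicate number deviated together from their group means in all 66 pairs of groups (r = 0.137 to 0.768, median 0.379), so the numbers were taken to pair the samples and the fit with a replicate block is given where it changes a call. Duplicates correlated at r = 0.954 to 0.994. The number of arrays limits the precision. Tested on simulated data of the KO against WT comparison under OGD with 25971 probes, 44 of 100 probes changed 2-fold and 96 of 100 changed 4-fold were called, with 6 unchanged probes. The simulated noise was independent between arrays and equal in all groups, with no replicate or chip effect. These arrays differ in that, so the counts are not the rates of the real comparison.

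The members and gene lists were chosen with earlier results of these data known. Named were all member probes, up to 3 called genes of each list and family of contrasts with the largest change (further ERK target genes were named after their values were seen), the label checks, and the 3 genes most like each member. The GC box was added to the motif search after the sequences were seen. Alternatives were cyclic loess, normexp background correction, 3 filters on dim probes, a fit to the arrays of each comparison alone, the replicate block, array weights, unadjusted p, the mean of a gene's probes, and leaving out each array.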

Additional observations from a re-analysis of the deposited data

Results flagged for a closer look

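Egfr under the 2 drugs moved in opposite directions in the genotypes on 3 of 5 kept probes: every KO drug array lay above both untreated KO arrays, and every WT drug array below both untreated WT arrays. The 3 probes read the same gene on the same arrays, and the share of all probes with this pattern is not given here. The KO response minus the WT response on the log2 scale was 1.27 for TG and 1.60 for TM on ILMN_1241496, 1.04 and 1.31 on ILMN_2693922, and 1.23 and 1.32 on ILMN_3128725. The other 2 kept Egfr probes did not show this: ILMN_3052260 changed by -0.06 under TG and -0.17 under TM in KO cells and by -0.84 and -0.95 in WT cells, and ILMN_2614432 by -0.03 and 0.35 in KO cells and by -0.38 and -0.34 in WT cells. None of the 6 differences passed the test of the difference in limma (adjusted p = 0.467 and 0.211, 0.579 and 0.27, and 0.717 and 0.589, TG before TM on each probe), where 0.496% of all genes passed for TG and 0.633% for TM. Drug and untreated arrays lay on different chip sets in both genotypes, and whether the chip contributes equally in both was not tested.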

How the results depend on the processing

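Of 8 member calls between KO and WT, 7 to 9 were made when 1 array was left out, and 4 in a fit to the arrays of each comparison alone. The 1 call among WT responses (Nrg1 under OGD) became 0 to 2 with 1 array left out and 0 in the fit to each comparison alone. With the replicate block, with the replicate block within each chip set (added after seeing the data) and with unadjusted p, WT responses gave 2 calls. The 2 calls among KO responses (Hbegf under TG and TM) became 1 to 3 with 1 array left out and stayed within 1.5 times otherwise. For the KO response minus the WT response, 0 calls became 0 to 1 with 1 array left out, 1 with the replicate block, 2 with array weights, 2 with the replicate block within each chip set and 5 with unadjusted p. The block changed the calls of Hbegf under OGD in KO cells (1.69, adjusted p = 0.00428), under OGD in WT cells (1.28, adjusted p = 0.0086) and in the response to TM (-2.20, adjusted p = 0.0151), and no other member call. The ERK target counts were 3 to 5 (TG) and 4 to 6 (TM) with 1 array left out. Hbegf under TG and TM and Btc under TM, KO against WT, were called under all 11 settings and all 24 omissions. The Egfr difference under OGD was called with the mean of its probes (-1.20, adjusted p = 0.00598, limma) and without WT OGD replicate 1 (-1.12, adjusted p = 0.0307, limma). No called direction turned under any setting.

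With 2 arrays a group, changes near 2-fold can be missed. Values near the background level, as for Ereg and for Btc in KO cells, understate differences. KO against WT under OD and OGD compares different chip sets, so genotype and chip cannot be told apart there, and drug against untreated does so in both genotypes.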
